A study of Mus musculus with 6 samples.

Results

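The extracellular matrix and fibroblast genes described here are 50 of the 24972 gene rows of a table of normalized read counts from mouse cardiomyocyte preparations. They were chosen by gene symbol and hold 14 collagens and 36 other genes for small proteoglycans, glycoproteins, matricellular proteins, crosslinking enzymes, proteases and fibroblast markers. All 50 were found, and all 50 reached the mean of 10 normalized counts over the 6 libraries that the test required. Every mouse had the genotype MX1gfp, a reporter line for the interferon-stimulated gene Mx1. Phosphate buffered saline was injected into the peritoneum of 3 mice as vehicle, and doxorubicin, 25 mg per kg of body weight, into that of 3 others. Doxorubicin, a topoisomerase II poison given to cancer patients, damages the heart at high cumulative doses. Cells were prepared 48 hours later, 1 library per mouse, and the labels give neither sex nor age. After collagenase digestion the atria were cut away from the ventricles and the myocytes settled under gravity, which enriches cardiomyocytes but sorts no cell type out.

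The matrix of the heart is a scaffold of fibrillar collagen between the muscle cells and of basement membrane around each muscle cell and capillary. Most of its fibrillar part is made by resident fibroblasts, while endothelial and mural cells contribute much of the basement membrane. Collagen chains fold into triple helices in the endoplasmic reticulum with the help of the chaperone Serpinh1, are trimmed and secreted, and are then crosslinked by lysyl oxidases. Matrix metalloproteinases (Mmp) cut matrix proteins, and their tissue inhibitors (Timp) restrain them.

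The libraries differed in more than treatment. Deposited values summed to between 7217949 and 7500386 in the vehicle libraries and between 5410780.2 and 6498373 in the doxorubicin libraries. The worth of 1 read, taken from the spacing of low values, gave about 3660000 to 6170000 reads after doxorubicin and 7710000 to 11400000 after vehicle, so that depth and treatment cannot be told apart. Doxorubicin replicate 1 resembled the vehicle libraries, with Spearman correlations over all genes tested of 0.977 to 0.982, whereas replicates 2 and 3 correlated with them at 0.860 to 0.914. The 10 cardiomyocyte markers, Myh6 and Tnni3 among them, summed to 630468 to 738102 in the vehicle libraries and to 558935, 194179.6 and 164071 in doxorubicin replicates 1 to 3. Fibroblast RNA was present in every library: 12 fibroblast markers that are not among the 50 genes summed to 3286 to 4119.6 after vehicle and to 4736, 9237 and 8570.2 after doxorubicin. In such bulk preparations more fibroblasts, more RNA per fibroblast and a smaller share of cardiomyocyte RNA cannot be told apart. Transcripts of Xist and of the Y chromosome placed vehicle replicate 3 with doxorubicin replicates 1 and 3, and vehicle replicates 1 and 2 with doxorubicin replicate 2.

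The first question was whether these genes differed between doxorubicin and vehicle, and whether collagens differed in the same way as the rest. Values of the non-collagen genes were higher after doxorubicin in most cases, whereas the collagens as a group were closer to their vehicle levels on the deposited scale. Each fold change is the doxorubicin mean less the vehicle mean of log2(value + 1), and adjusted p-values come from limma over 12477 genes with a threshold of 0.05. The median log2 fold change was 0.21 over the 14 collagens, from -0.84 to 0.85, and 0.81 over the 36 other genes, from -0.63 to 3.51, beside a median of -0.0046 and a mean of 0.03 over all genes tested. The collagen median depended on the scaling: it was 0.51 with equal totals, where the median of all genes was 0.29, and 0.44 with quantile normalization. With all 6 libraries 0 of the 50 genes passed the test in either direction, beside 0% of all genes tested in each direction, and their lowest adjusted p was 0.0859, shared by several genes. Without adjustment, 23 of the 50 had a p under 0.05 and were higher (16.7% of all genes tested) and 0 lower (19.3%), and 22 of those 23 were not collagens. Every doxorubicin library lay above every vehicle library in 20 of the 50 genes (19.2% of all genes tested), of which 19 were not collagens. In 0 of the 50 did every doxorubicin library lie below (22.6%). When 1 library was left out, 20 to 31 lay above (31 without vehicle replicate 1, 29 without doxorubicin replicate 1), fewer libraries being easier to separate. Without doxorubicin replicate 1, 4 lay below. No share over all genes tested is given for those settings, so their counts cannot be read against 19.2% or 22.6%.

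The size of the difference depended on the library. The collagen median, taken against the mean of the vehicle libraries, was 0.21, 0.19 and 0.14 in doxorubicin replicates 1 to 3, and that of the other genes was 0.38, 1.16 and 1.10. The collagen median was therefore below that of the other genes by 0.16, 0.97 and 0.96 on the log2 scale in doxorubicin replicates 1 to 3, while the 3 vehicle libraries had differences of 0.11, -0.03 and -0.08. As a share of the deposited total, the 36 other genes held 0.498% to 0.63% in the vehicle libraries and 0.782%, 1.74% and 1.78% in the doxorubicin libraries. The 14 collagens held 0.223% to 0.323% after vehicle and 0.343% to 0.345% after doxorubicin, so that their share was also higher in every doxorubicin library. Without doxorubicin replicate 1, limma called 24 of the 50 genes higher (19.3% of all genes tested) and 4 lower (21.8%). Those calls took in 2 collagens higher and 3 lower, against 22 other genes higher and 1 lower. Replicate 1 was the doxorubicin library most like the vehicle libraries, so leaving it out favours larger differences. Each fit that left out another library called 0 of the 50 genes. The adjusted p-values without replicate 1 given below all come from that 1 limma fit and are to be read with this limit. Among libraries with Y-linked transcripts (2 vehicle, 1 doxorubicin), the collagen median was 0.09 and that of the other genes 1.09. Within those with Xist (1 vehicle, 2 doxorubicin, replicate 1 among them) they were 0.42 and 0.82. These are values with no test, and each class has a group of only 1 library.

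**Figure D1:**
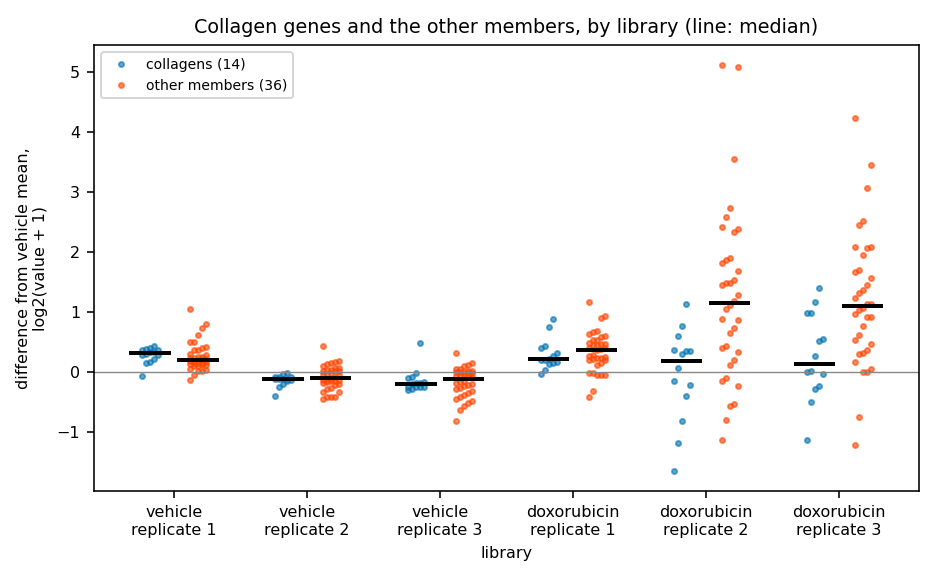
Each point is 1 gene's difference from its mean over the vehicle libraries (vertical axis, log2(value + 1)) in each of the 6 libraries (horizontal axis), with collagens in blue, the other members in orange-red and black lines at the medians. The orange-red medians of doxorubicin replicates 2 and 3 stand at 1.16 and 1.10, while the blue medians stay at 0.19 and 0.14.

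Among the fibrillar collagens, which form the tensile fibres of the heart wall, 4 of 5 had a positive fold change. In 1 of the 5 the groups did not overlap, where 19.2% of all genes tested were higher without overlap. Col5a2 (chromosome 1, 45374331 to 45503282), a chain of the minor fibrillar collagen that helps to start fibrils, held 331, 224 and 208 normalized counts in the vehicle libraries, in replicate order here and throughout, and 337, 548 and 493 after doxorubicin. Every doxorubicin library was above every vehicle library, with the first only just above the highest vehicle library, and the log2 fold change was 0.85 (SE 0.25, adjusted p 0.0859). Its partner chain Col5a1 (chromosome 2, 27886381 to 28039510) held 574, 414 and 361 and then 485, 546 and 529, and its groups overlapped, at 0.24 (SE 0.19, adjusted p 0.396). Both chains of type I collagen, the main fibre of the heart, overlapped between the groups. Col1a2 (chromosome 6, 4505618 to 4541543) held 1056, 771 and 663 in the vehicle libraries and 917, 1231 and 1196 in the doxorubicin libraries, where replicates 2 and 3 lay above all vehicle values and replicate 1 did not, a fold change of 0.44 (SE 0.22, adjusted p 0.181). Col1a1 (chromosome 11, 94936224 to 94953042), chosen for full values after they were seen, held 999.7, 709 and 649.8 and then 891, 982 and 773, all doxorubicin values lying within the vehicle range, at 0.18 (SE 0.20, adjusted p 0.528). Col3a1 (chromosome 1, 45311538 to 45349706), the chain of type III collagen that makes finer fibres, went the other way in some libraries. It held 2268, 1412 and 1467 after vehicle and 2219.8, 739.8 and 1184 after doxorubicin, so that replicates 2 and 3 were below all vehicle libraries and replicate 1 was close to the highest. Its fold change was -0.42 (SE 0.39, adjusted p 0.458), and -0.84 (SE 0.27, adjusted p 0.0385) without doxorubicin replicate 1. Without that library Col5a2 was at 1.06 (SE 0.21, adjusted p 0.00605), so 1 of these 5 chains was called higher and 1 lower. Of all genes tested, that fit called 19.3% higher and 21.8% lower.

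The upstream bases of Col1a2 are shown as those of a main collagen chain, to set beside the proteases. RefSeq promoter windows of GRCm38.p6, the build that mm10 denotes, matched 33 of the 50 genes by symbol. The 250 bases before the annotated start were searched on both strands for the CCAAT box (CCAAT), the TATA box (TATAAA) and the AP-1 site (TGANTCA), and matches are in capitals. The window of Col1a2 (chr6:4505368-4505617, plus strand) holds 1 match, a CCAAT box whose first base lies 109 bases before the start.
Col1a2: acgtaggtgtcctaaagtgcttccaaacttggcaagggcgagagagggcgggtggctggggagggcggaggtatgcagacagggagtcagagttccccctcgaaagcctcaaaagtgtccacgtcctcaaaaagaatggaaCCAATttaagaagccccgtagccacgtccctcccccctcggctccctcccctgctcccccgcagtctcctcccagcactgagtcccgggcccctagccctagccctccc

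Over the 33 matched genes a CCAAT box was found in 10 (30.3%), a TATA box in 5 (15.2%) and an AP-1 site in 2 (6.06%), against 33.8%, 12.3% and 6.73% of all 32536 windows of this length. A match describes the letters only.

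Collagens of basement membranes and networks divided into chains near their vehicle level and chains that differed in doxorubicin replicates 2 and 3. Type IV collagen, the sheet of every basement membrane, had the highest levels per kilobase of transcript among the 14, 1057 for Col4a1 and 776 for Col4a2 after vehicle. Col4a1 (chromosome 8, 11198423 to 11312889) held 8423, 6735 and 5824 after vehicle and 8029, 8931 and 6769 after doxorubicin, a fold change of 0.18 (SE 0.25, adjusted p 0.617), with overlapping groups. Col4a2 (chromosome 8, 11312805 to 11449287) ranged from 4449.8 to 5623 and from 4240.2 to 5538, at -0.01 (SE 0.21, adjusted p 0.987), and it was higher with equal totals (0.30) and under quantile normalization (0.42). With equal totals the median of all genes tested was also higher, at 0.29. The spans of both genes overlap at their 5′ ends, and the use of strand is not given in the sources used here, so reads from that overlap cannot be assigned. Col15a1 (chromosome 4, 47207655 to 47313167), a chain of the microvascular basement membrane, held 1331, 946 and 1027 after vehicle and 1313, 347 and 493 after doxorubicin. Replicates 2 and 3 stood below every vehicle library and replicate 1 near the highest of them. The fold change was -0.84 (SE 0.45, adjusted p 0.21), and -1.40 (SE 0.21, adjusted p 0.00181) without doxorubicin replicate 1, the lowest value among the collagens in both fits. Col8a1 (chromosome 16, 57624256 to 57754737), a short-chain collagen of vessel walls, held 222, 175 and 176 and then 186, 325 and 376, with replicates 2 and 3 above every vehicle library, at 0.58 (SE 0.27, adjusted p 0.166) and, without replicate 1, 0.88 (SE 0.17, adjusted p 0.00511). Col18a1 (chromosome 10, 77052178 to 77166530), the source of the fragment endostatin, held 142, 105 and 94.1 and 189, 84.6 and 254, with doxorubicin libraries on both sides of the vehicle range, at 0.51 (SE 0.39, adjusted p 0.367).

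The basement membrane glycoproteins were higher in doxorubicin replicates 2 and 3 than in any vehicle library. With all doxorubicin libraries the groups were separate in 1 of the 3 genes, where 19.2% of all genes tested were higher without overlap. Lamc1 (chromosome 1, 153218922 to 153332786), the gamma chain shared by most laminins, held 2381, 2189 and 1889 after vehicle and 2079.8, 3943 and 3283 after doxorubicin, at 0.48 (SE 0.26, adjusted p 0.215). Nid1 (chromosome 13, 13437602 to 13512275), which links laminin to type IV collagen, held 1863, 1849 and 1297 and then 1637, 3019 and 2799, at 0.54 (SE 0.28, adjusted p 0.196). In both genes replicate 1 lay inside the vehicle range, and without it the fold changes were 0.75 (adjusted p 0.014) and 0.82 (adjusted p 0.0143). Lamb1 (chromosome 12, 31265146 to 31329644), a laminin beta chain, had a smaller difference. It held 1271, 1210.3 and 1221 after vehicle and 1368, 1628 and 1283 after doxorubicin, groups that did not overlap by a narrow margin, at 0.20 (SE 0.16, adjusted p 0.367).

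Type VI collagen, which forms beaded filaments around cells, gave no shared pattern among its chains. Col6a1 (chromosome 10, 76708792 to 76726044) held 902, 661 and 624 after vehicle and 901, 918 and 1029.8 after doxorubicin, at 0.40 (SE 0.18, adjusted p 0.155). Col6a2 (chromosome 10, 76595756 to 76623630) held 899, 676 and 639.8 and then 838, 656 and 736, at 0.02 (SE 0.18, adjusted p 0.952), and its sign changed without doxorubicin replicate 1 (-0.07), vehicle replicate 2 (-0.04) or vehicle replicate 3 (-0.08). Col6a3 (chromosome 1, 90766860 to 90844001) held 414, 340.5 and 369 and then 381, 212 and 306, so replicates 2 and 3 lay below every vehicle library, at -0.36 (SE 0.23, adjusted p 0.278) and, without replicate 1, -0.55 (SE 0.19, adjusted p 0.0487). These chains assemble into 1 protein, yet doxorubicin replicate 2 was above the vehicle range in Col6a1 and below it in Col6a3. Col14a1 (chromosome 15, 55307644 to 55520803), which coats fibrils, held 106, 83.4 and 155 after vehicle and 206, 95.5 and 295 after doxorubicin, with replicate 2 inside the vehicle range and the other two above it, at 0.69 (SE 0.42, adjusted p 0.259).

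**Figure D2:**
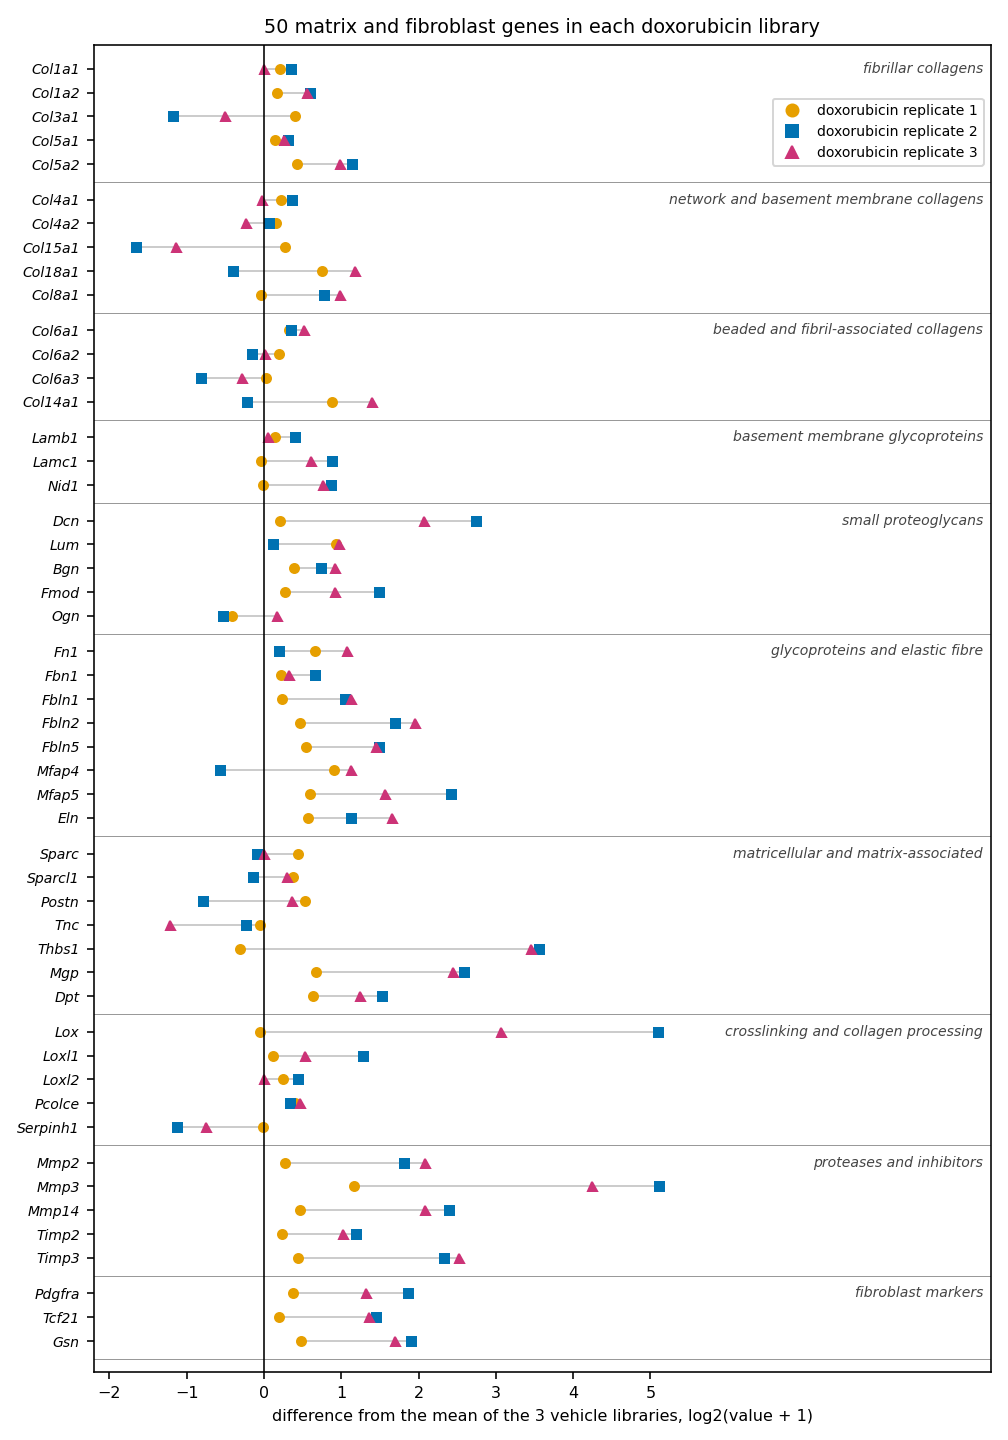
Rows are the 50 genes grouped by role, and each marker is a doxorubicin library's difference from the mean of the vehicle libraries (horizontal axis, log2(value + 1)), with a circle for replicate 1, a square for replicate 2 and a triangle for replicate 3. Circles stay within -0.41 and 1.17, while squares reach 5.11 in Mmp3 and -1.65 in Col15a1.

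The small leucine-rich proteoglycans bind collagen fibrils and set their spacing, and 4 of the 5 had higher mean values after doxorubicin. Dcn (chromosome 10, 97479500 to 97518163), decorin, a common marker of fibroblasts, held 2905, 2767 and 2446 after vehicle and 3113, 18072 and 11326 after doxorubicin. All doxorubicin libraries lay above the vehicle libraries, replicate 1 barely so and replicates 2 and 3 by several-fold. Its fold change was 1.67 (SE 0.58, adjusted p 0.0966), and 2.41 (SE 0.25, adjusted p 0.000418) without replicate 1. Bgn (chromosome X, 73483601 to 73495936), biglycan, the closest relative of decorin, held 1487, 1225 and 1325 and then 1763, 2232 and 2529, without overlap, at 0.68 (SE 0.19, adjusted p 0.0859) and 0.82 (adjusted p 0.0056) without replicate 1. Lum (chromosome 10, 97565501 to 97572703), lumican, had another order among the doxorubicin libraries, with replicate 2 the lowest. It held 389.8, 336 and 499.8 and then 770.4, 438 and 788, at 0.67 (SE 0.27, adjusted p 0.119). Fmod (chromosome 1, 134037254 to 134048280), fibromodulin, held 94.6, 33.6 and 28.7 and 54.9, 129 and 86.4, a low and variable signal with overlapping groups, at 0.90 (SE 0.49, adjusted p 0.22). Ogn (chromosome 13, 49608015 to 49624501), osteoglycin, ranged from 1142 to 1359.7 after vehicle and from 864 to 1409 after doxorubicin, at -0.26 (SE 0.21, adjusted p 0.402). With equal totals it was at 0.04, where the median of all genes tested was 0.29.

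Glycoproteins and elastic fibre genes all had positive fold changes, and in 5 of 8 the groups were separate, where 19.2% of all genes tested were higher without overlap. Mfap5 (chromosome 6, 122513584 to 122529290), a microfibril protein, had the largest of these, with 150.0, 101 and 125 after vehicle and 188, 664 and 369.7 after doxorubicin, at 1.53 (SE 0.42, adjusted p 0.0859). Fbln2 (chromosome 6, 91212460 to 91272540), fibulin-2, which bridges elastic fibres and basement membranes, held 989.9, 979.8 and 793 and then 1262, 2961 and 3563, at 1.37 (SE 0.37, adjusted p 0.0859). Doxorubicin replicate 1 was above all vehicle libraries in both genes, and replicates 2 and 3 were higher still. Eln (chromosome 5, 134702595 to 134747368), elastin itself, held 379.8, 363 and 233 and then 474, 692 and 1007, at 1.12 (SE 0.31, adjusted p 0.0859). Fbln5 (chromosome 12, 101746565 to 101819119), which helps elastin to assemble, held 232, 182 and 123 and then 252, 488 and 477, at 1.16 (SE 0.32, adjusted p 0.0859). Neither gene's groups overlapped, and Fbln1, another fibulin, completed the 5, at 0.81 (SE 0.26, adjusted p 0.0875). Without doxorubicin replicate 1, limma called these 5 genes higher, from 1.09 in Fbln1 to 1.99 in Mfap5, beside 19.3% of all genes tested. The groups of Fn1, Fbn1 and Mfap4 overlapped: fibronectin (Fn1) was at 0.64 (SE 0.24, adjusted p 0.108), fibrillin-1 (Fbn1), the backbone of microfibrils, at 0.40 (SE 0.20, adjusted p 0.178), and the microfibril-associated Mfap4 at 0.49 (SE 0.45, adjusted p 0.455).

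Matricellular proteins sit in the matrix and act on cells rather than bearing load. In 2 of the 7 genes the groups were separate, where 19.2% of all genes tested were higher without overlap. Mgp (chromosome 6, 136872435 to 136875823), matrix Gla protein, an inhibitor of calcification, held 676, 508 and 589.7 after vehicle and 941, 3538 and 3202 after doxorubicin. Dpt (chromosome 1, 164796663 to 164824274), dermatopontin, which speeds fibril formation, held 552, 369 and 498 and then 726, 1350.0 and 1103. The groups of both were separate, at 1.90 (SE 0.47, adjusted p 0.0859) for Mgp and 1.14 (SE 0.26, adjusted p 0.0859) for Dpt. Thbs1 (chromosome 2, 118111876 to 118127133), thrombospondin-1, an inhibitor of vessel growth that can activate latent TGF-beta, held 119, 103 and 64.9 after vehicle and 74.7, 1104 and 1031 after doxorubicin. Replicate 1 fell inside the vehicle range and replicates 2 and 3 stood far above it, so the fold change of 2.24 (SE 0.95, adjusted p 0.137) became 3.51 (SE 0.25, adjusted p 0.000151) without replicate 1. Sparcl1 (chromosome 5, 104079108 to 104114088), among the most abundant of these transcripts, held 4919, 4696 and 3916 and then 5828, 4062 and 5525, at 0.18 (SE 0.23, adjusted p 0.595). Sparc, a collagen-binding relative, was at 0.12 (SE 0.29, adjusted p 0.79), and Postn, periostin, a marker of activated fibroblasts, at 0.04 (SE 0.40, adjusted p 0.956). Both signs were unstable, since Sparc was at -0.05 and Postn at -0.21 without doxorubicin replicate 1. Tnc (chromosome 4, 63959785 to 64047015), tenascin-C, was the least abundant per length, with 31.7, 16.3 and 12.3 after vehicle and 17.9, 15.7 and 7.41 after doxorubicin, at -0.50 (SE 0.50, adjusted p 0.494). The groups of Sparc, Sparcl1, Postn and Tnc overlapped.

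Crosslinking and collagen-processing genes did not share 1 direction. Lox (on chromosome 18), lysyl oxidase, which crosslinks collagen and elastin, held 39.9, 40.8 and 16.6 after vehicle and 28.9, 1058 and 259 after doxorubicin. Replicate 1 lay among the vehicle libraries while replicates 2 and 3 were above them by many-fold, and replicate 2 was several times replicate 3. Its fold change was 2.70 (SE 1.14, adjusted p 0.134), and 4.08 (SE 0.59, adjusted p 0.00151) without replicate 1. Loxl1 (chromosome 9, 58287723 to 58313212), a related gene linked to elastic fibres, held 484, 367 and 389.9 and then 448, 998 and 594, at 0.64 (SE 0.29, adjusted p 0.15) and 0.91 (adjusted p 0.0171) without replicate 1. Loxl2, another related gene, was at 0.23 (SE 0.25, adjusted p 0.525) with overlapping groups. Pcolce (chromosome 5, 137605105 to 137611522), which enhances the trimming of procollagen, was even across the doxorubicin libraries. It held 367, 296 and 318 and then 432, 413 and 452, without overlap, at 0.41 (SE 0.14, adjusted p 0.0976). Serpinh1 (chromosome 7, 99345375 to 99353239), the collagen chaperone HSP47, held 2712, 2169.7 and 2290.1 after vehicle and 2367, 1088 and 1416 after doxorubicin. Replicates 2 and 3 were below every vehicle library and replicate 1 within them, at -0.63 (SE 0.29, adjusted p 0.158) and -0.94 (SE 0.19, adjusted p 0.0057) without replicate 1, the only non-collagen gene of the 50 called lower in that fit.

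Proteases and their inhibitors had the highest median of the 10 role groups, 1.65. Each of the 5 genes had separate groups, where 19.2% of all genes tested were higher without overlap. Mmp3 (chromosome 9, 7445822 to 7455975), stromelysin-1, which cuts proteoglycans and fibronectin and activates other metalloproteinases, had the largest fold change of the 50 genes. It held 19.2, 7.69 and 7.95 normalized counts after vehicle and 25.1, 402 and 219 after doxorubicin, at 3.51 (SE 0.94, adjusted p 0.0859). The vehicle values rest on few reads, and replicate 1 was only slightly above the highest of them. Timp3 (chromosome 10, 86300412 to 86349505), an inhibitor bound to the matrix, held 2115, 2299 and 1870.0 and then 2846, 10528 and 12011, at 1.77 (SE 0.52, adjusted p 0.0859). Mmp14 (chromosome 14, 54431598 to 54442456), a membrane-bound protease that activates Mmp2, held 292, 217 and 181 and then 312, 1188 and 959, at 1.65 (SE 0.47, adjusted p 0.0859). Both had doxorubicin replicate 1 closest to the vehicle libraries. Mmp2 (chromosome 8, 92827290 to 92853421), gelatinase A, held 462, 441 and 457 and then 548, 1592 and 1916, at 1.39 (SE 0.43, adjusted p 0.086). Timp2 (chromosome 11, 118301061 to 118355411), which takes part in that activation and also inhibits it, held 1054, 826 and 978 and then 1116, 2163 and 1934, at 0.82 (SE 0.26, adjusted p 0.0878). Proteases and inhibitors were thus high in the same libraries, replicates 2 and 3. Without replicate 1 limma called all 5 higher, from 1.11 in Timp2 (adjusted p 0.00172) to 4.68 in Mmp3 (adjusted p 0.000312). That fit called 19.3% of all genes tested higher.

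The upstream windows of Mmp3 and Mmp14 are shown because both transcripts were high in the same libraries. That of Mmp3 (chr9:7445572-7445821, plus strand) holds an AP-1 site 46 bases before the start and a TATA box 7 bases before it. That of Mmp14 (chr14:54431348-54431597, plus strand) holds neither and has CCAAT boxes on the opposite strand, written ATTGG, 69 and 23 bases before the start, each distance being that of the match's first base.
Mmp3: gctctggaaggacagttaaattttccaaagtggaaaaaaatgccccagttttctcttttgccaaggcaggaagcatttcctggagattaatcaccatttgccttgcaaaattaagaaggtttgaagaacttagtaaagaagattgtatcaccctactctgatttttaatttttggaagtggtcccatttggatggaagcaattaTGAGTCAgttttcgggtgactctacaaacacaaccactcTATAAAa
Mmp14: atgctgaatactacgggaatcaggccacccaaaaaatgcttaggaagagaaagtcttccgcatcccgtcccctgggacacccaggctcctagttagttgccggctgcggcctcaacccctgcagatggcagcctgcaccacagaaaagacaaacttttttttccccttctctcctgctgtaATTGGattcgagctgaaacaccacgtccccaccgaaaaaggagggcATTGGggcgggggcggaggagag

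**Figure D3:**
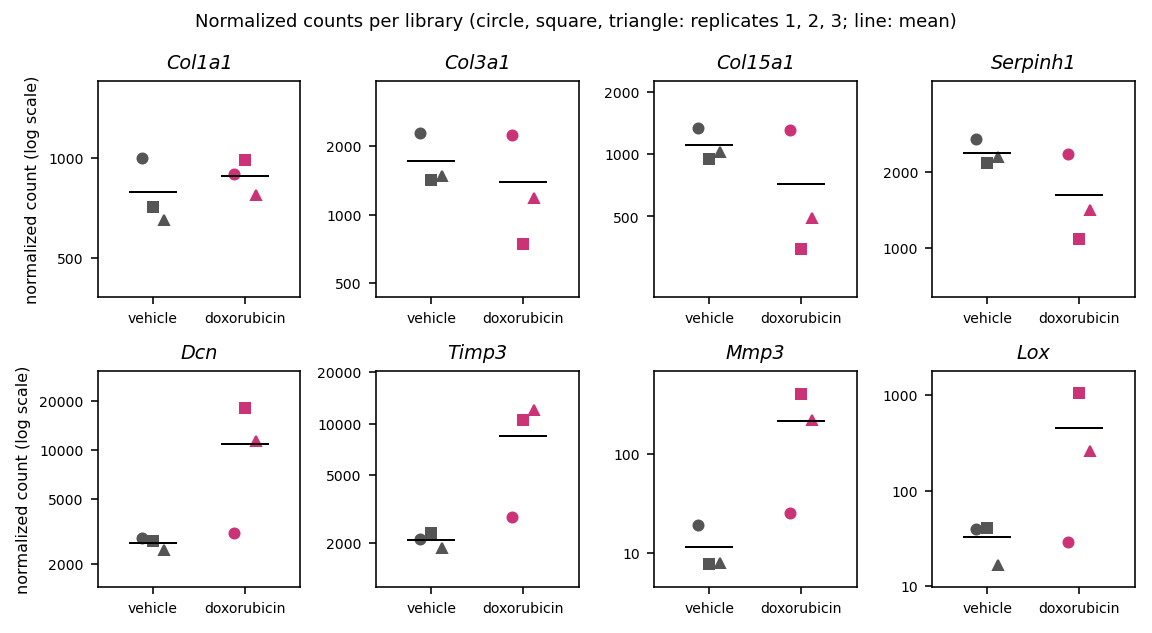
Normalized counts (vertical axes, log scale) of 8 genes in the vehicle and doxorubicin libraries, with a circle, a square and a triangle for replicates 1, 2 and 3 and a line at the group mean. Doxorubicin replicate 1 lies near the vehicle libraries in each panel, while replicates 2 and 3 are lower in Col3a1, Col15a1 and Serpinh1 and higher in Dcn, Timp3, Mmp3 and Lox.

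The 3 markers of the fibroblast itself were also higher in mean value. Pdgfra (chromosome 5, 75151322 to 75198206), the receptor by which cardiac fibroblasts are commonly identified, held 296, 287 and 292 after vehicle and 378, 1068 and 728 after doxorubicin, at 1.19 (SE 0.34, adjusted p 0.0859). Tcf21 (chromosome 10, 22817263 to 22820143), a transcription factor of the resident fibroblast, held 69.4, 59.1 and 63.7 and then 73.7, 177 and 166, at 1.01 (SE 0.33, adjusted p 0.0891). Gsn (chromosome 2, 35256359 to 35307902), gelsolin, an actin-severing protein abundant in fibroblasts though not restricted to them, held 9076, 7632 and 8699.6 and then 11779, 31666 and 27369, at 1.36 (SE 0.42, adjusted p 0.086). In each of these 3 genes the groups were separate, where 19.2% of all genes tested were higher without overlap. Without replicate 1 the fold changes were 1.59 (adjusted p 0.000606), 1.41 (adjusted p 0.000815) and 1.80 (adjusted p 0.00156). Of the 12 fibroblast markers outside the 50 genes, 10 had a positive and 2 a negative fold change, with a median of 0.73, and 0 passed the test (0% of all genes tested). In limma 6 were higher at an unadjusted p under 0.05 (16.7% of all genes tested). The groups did not overlap in 4, all higher (19.2% of all genes tested). The 2 negative ones, named after their values were seen, were Thy1 at -0.04 and Meox1 at -0.00099. Clec3b, tetranectin, was at 1.53 (SE 0.27, adjusted p 0.0859), Pi16 at 0.79 (SE 0.18, adjusted p 0.0859) and the protease Htra3 at 1.38 (SE 0.45, adjusted p 0.0882), and their groups did not overlap. The medians of these 12 markers were 0.23, 1.03 and 0.82 in doxorubicin replicates 1 to 3. Collagens were thus below the outside markers by 0.02, 0.85 and 0.69 on the log2 scale, as a description of these libraries.

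Markers of other cells differed in the same libraries, and their part in the differences was not tested. All 10 cardiomyocyte markers had negative fold changes (median -1.37), and in 7 every doxorubicin library was below every vehicle library (22.6% of all genes tested). The 6 epicardial markers, such as Msln, mesothelin, were all higher on average (median 1.23), and their values summed to 189 to 412 after vehicle and 367, 839.8 and 703 after doxorubicin. Endothelial markers were higher in 9 of 10 (median 0.77) and summed to 17094 to 23683 after vehicle and 32415, 32348 and 41552 after doxorubicin. Macrophage markers were higher in 10 of 10 (median 1.57) and summed to 2583 to 2791 after vehicle and 4238, 7421 and 15615 after doxorubicin. Mural markers had a median of -0.22, with 4 of 10 higher, and summed to 26881 to 30951 after vehicle and 23522, 25971 and 21064 after doxorubicin. Des alone held 15720, 16582 and 17963 of the vehicle sums and 11739, 13090 and 7087 of the doxorubicin sums. Rgs5 held 7807, 4333 and 4336 and then 5270, 9595 and 9346, so the sums mix genes that differed in opposite directions. Neutrophil markers were near 0 after vehicle, with Retnlg at 0 in all 3 vehicle libraries, and their 6 genes summed to 11.2 to 21.7 after vehicle and 55.0, 626 and 469.7 after doxorubicin. The 8 lymphocyte markers summed to 22.2 to 47.3 after vehicle and 87.1, 9.63 and 20.8 after doxorubicin, and 1 of them reached the minimum for testing. Atrial markers summed to 456 to 526 after vehicle and 1431, 368 and 708 after doxorubicin, Schwann cell markers to 83.8 to 160.1 after vehicle and 163, 109 and 157 after doxorubicin and erythroid markers, with Hbb-bs at 0 in every library, to 1211 to 2104 after vehicle and 9027, 249.8 and 421 after doxorubicin. The erythroid and atrial sums were highest in doxorubicin replicate 1.

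**Figure D4:**
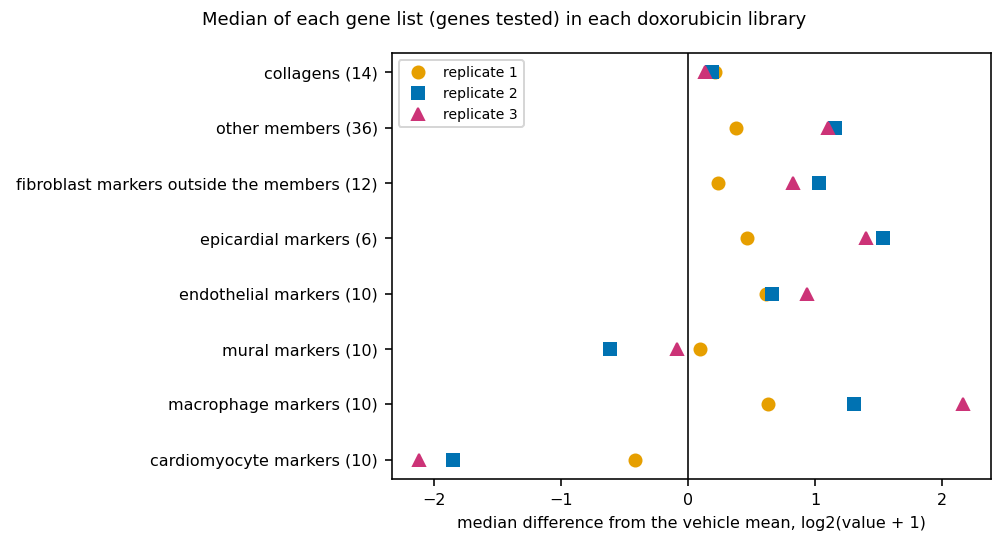
For each gene list (rows, with the number of genes tested), the median difference from the mean of the vehicle libraries (horizontal axis, log2(value + 1)) is shown for doxorubicin replicate 1 (circle), 2 (square) and 3 (triangle). The collagen markers coincide near 0.19, whereas the other matrix genes and the outside fibroblast markers lie further right in replicates 2 and 3, and cardiomyocyte markers lie left of 0.

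Other genes of the same pathways were taken from 6 further lists, some of which share genes with each other or with the marker lists. In each of the 6, 0 genes passed the test with all libraries, beside 0% of all genes tested, so counts below give the sign of the fold change and whether the groups overlapped. The counts without overlap are to be read against the 19.2% of all genes tested that were higher and the 22.6% that were lower without overlap. For counts at an unadjusted p under 0.05 in limma, the shares of all genes tested were 16.7% higher and 19.3% lower. For the enzymes that modify and trim collagen, 21 of 23 genes were tested, 14 with a positive and 7 with a negative fold change (median 0.07, with 5 higher and 1 lower at an unadjusted p under 0.05), and the groups did not overlap in 4, all higher, a share near the 19.2% of all genes tested. Plod3, a lysyl hydroxylase, was at 0.57 (SE 0.16, adjusted p 0.0859), and the prolyl hydroxylases P3h2 and P3h3 at 1.07 and 0.75. P4hb, protein disulfide isomerase and the most abundant of the list, was at -0.03 (SE 0.15, adjusted p 0.907). Of the collagens outside the 14, 12 of 26 genes reached the minimum for testing, 10 with a positive and 2 with a negative fold change (median 0.41, with 0 higher and 1 lower at an unadjusted p under 0.05), and the groups did not overlap in 4 higher and 1 lower. The lower one was Col4a5, another type IV chain, at -0.71 (SE 0.27, adjusted p 0.112), and Col16a1 and Col23a1 were higher at 0.51 and 0.65. The list's most abundant gene, Col5a3, was at 0.24 (SE 0.17, adjusted p 0.317) with overlapping groups. Among other basement membrane genes, 12 of 17 genes were tested, 7 with a positive and 5 with a negative fold change (median 0.10, with 1 higher and 2 lower at an unadjusted p under 0.05), while the mean was -0.05. Smoc1, a calcium-binding matrix protein, was at 1.20 (SE 0.22, adjusted p 0.0859), whereas Frem2 was at -1.43 (SE 0.44, adjusted p 0.086) and the laminin chain Lamb3 at -1.26 (SE 0.41, adjusted p 0.0878), and the groups did not overlap in these 3 genes. Hspg2, perlecan, the most abundant, was at -0.23 (SE 0.26, adjusted p 0.53) with overlapping groups.

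Among other matrix proteases and inhibitors, 17 of 18 genes were tested, 16 with a positive and 1 with a negative fold change (median 0.58, with 6 higher and 1 lower at an unadjusted p under 0.05). Timp4, the inhibitor most associated with the heart, held 316, 516 and 243 after vehicle and 648, 2344 and 2809 after doxorubicin, at 2.25 (SE 0.55, adjusted p 0.0859). Reck, a membrane-anchored inhibitor, was at 1.30 (SE 0.24, adjusted p 0.0859) and Mmp9, gelatinase B, at 1.69 (SE 0.42, adjusted p 0.0859), and neither gene's groups overlapped, nor did those of Timp4. The 1 gene with a negative value was Mmp15, named after its values were seen, at -1.47 (SE 0.58, adjusted p 0.119), with 1548, 1430.5 and 1582 after vehicle and 1569, 259 and 401 after doxorubicin. For the receptors by which cells hold matrix, 21 of 23 genes were tested, 15 with a positive and 6 with a negative fold change (median 0.31, with 5 higher and 3 lower at an unadjusted p under 0.05), and the groups did not overlap in 5 higher and 3 lower. The syndecans Sdc1 and Sdc4 were at 1.43 (SE 0.42, adjusted p 0.0859) and 1.16 (SE 0.35, adjusted p 0.0859). Itga7, the laminin-binding integrin of striated muscle, was at -0.77 (SE 0.21, adjusted p 0.0859), while the shared integrin subunit Itgb1 was at 0.03 (SE 0.18, adjusted p 0.915). For genes linked to fibroblast activation, 22 of 23 genes were tested, 16 with a positive and 6 with a negative fold change (median 0.36, with 5 higher and 1 lower at an unadjusted p under 0.05), and the groups did not overlap in 5, all higher, again near the 19.2% of all genes tested. Tgfbr2, a TGF-beta receptor, was at 1.16 (SE 0.32, adjusted p 0.0859), Fstl1 at 0.73 (SE 0.24, adjusted p 0.0878) and Vim, vimentin, the list's most abundant gene, at 0.68 (SE 0.21, adjusted p 0.0859). Acta2, smooth muscle actin, a marker of myofibroblasts and of mural cells named after its values were seen, held 1874, 735 and 1386 after vehicle and 1451, 189.8 and 724 after doxorubicin, at -1.08 (SE 0.70, adjusted p 0.288). Without doxorubicin replicate 1, limma called 7 collagen-modifying enzymes higher and 1 lower, 9 receptors higher and 3 lower, 7 proteases or inhibitors higher and 1 lower, and 8 activation genes higher and 2 lower. The numbers were 3 higher and 1 lower for the other collagens and 1 higher and 2 lower for the basement membrane list. In that fit 19.3% of all genes tested were called higher and 21.8% lower.

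Levels were compared between genes per kilobase of the longest coding transcript in GENCODE M21, as normalized counts per kilobase. After vehicle the order began with Gsn at 3192, Sparc at 1789, Sparcl1 at 1635, Dcn at 1539, Col4a1 at 1057 and Serpinh1 at 1051. After doxorubicin the mean levels were led by Gsn at 8897, Dcn at 6164 and Mgp at 4149.7, with Sparc at 1899.8 and Sparcl1 at 1862. The lowest vehicle levels were those of Tnc at 2.83, Mmp3 at 6.45 and Lox at 6.83, of which Mmp3 and Lox were at 119.6 and 94.7 after doxorubicin. Where the cells use a shorter transcript, the true level per kilobase is higher than given.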

How the data were processed

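RNA from 6 cardiomyocyte preparations was sequenced, 3 per group, with groups and replicate numbers taken from the sample titles. Per the labels, reads were aligned with STAR in BaseSpace to mm10 with RefSeq genes, and the submitters' processing notes name STAR 2.6.1a and Salmon. The deposited values are a signal, normalized read counts per gene, made by the authors; the sources used here give neither the normalization nor the use of strand. Most low values, but not all, lay near whole multiples of 1 read (80.7% to 92.4% within 0.1 of a multiple), so no count test was used.

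The 24972 rows were used as deposited. Values were put on the log2(value + 1) scale, and the 12477 genes whose mean reached 10 entered a fit with limma (version 3.58.1, R 4.3.3), with a mean-dependent prior, two-sided, adjusted by the Benjamini-Hochberg method over all of them at a threshold of 0.05. Leaving out a library kept these genes. With 3 libraries against 3 an exact permutation test cannot give a p below 0.1. The mice are separate animals per the series design. The script was tested on simulated data in which both groups had the spread of the vehicle libraries. The real median SD over all genes tested was 0.163 after vehicle and 0.334 after doxorubicin, so that test does not cover the wider doxorubicin spread. Coordinates and promoters are from RefSeq (GRCm38.p6), lengths from GENCODE M21. Ccn1 and Ccn2 stand in the table as Cyr61 and Ctgf, and Col21a1 was not analysed here. Figures were drawn with matplotlib 3.10.9.

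The members and lists were chosen with earlier results of these data known. All 50 members could be named. Values of every library are given for up to 4 members of each role group with the smallest unadjusted p and for the one with the highest mean, and from each pathway list up to 3 genes with the smallest unadjusted p and the most abundant one are named. Alternatives were other pseudocounts (0.5 and 8), filters (none and a mean of 50), scalings, moderation, library weights, the replicate block, the class of sex-linked transcripts and leaving out each library. Values within the classes were added after seeing the data.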

Additional observations from a re-analysis of the deposited data

How the results depend on the processing

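With all 6 libraries at equal weight, 0 members were called higher or lower by limma under every pseudocount, filter, scaling, moderation and covariate tried, as were 0 of all genes tested, where 3708 to 4936 genes had an unadjusted p under 0.05. Library weights, which gave doxorubicin replicate 1 a weight of 0.277, called 4272 of 12477 genes, 1954 higher and 2318 lower. Of the 50 members, that fit called 23 higher and 2 lower. Leaving out a library gave 0 to 5127 genes called, 0 to 24 members higher and 0 to 4 lower. The calls among members came with doxorubicin replicate 1 left out, where 19.3% of all genes tested were called higher and 21.8% lower. Members whose groups did not overlap numbered 20 to 31 higher, the highest without vehicle replicate 1, and 0 to 4 lower, the highest without doxorubicin replicate 1. No share over all genes tested is given with a library left out, so those counts have no background beside them. The smallest adjusted p over all genes ran from 0.064 with equal totals to 0.115 with the replicate block among the fits with all libraries at equal weight. The replicate numbers are not stated to pair the mice. Same-numbered libraries deviated together at correlations of -0.13, 0.03 and -0.09, and differently numbered ones at -0.18 to 0.22. With so few libraries these values cannot show whether the mice were paired. With the replicate block 0 genes were called by limma and 25 members had an unadjusted p under 0.05, beside 3708 of all 12477 genes tested.

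The collagen median of 0.21 was 0.51 with equal totals, which moved the median of all genes to 0.29, and 0.44 with quantile normalization, 0.28 with library weights, 0.31 with the class covariate, 0.094 within the libraries with Y-linked transcripts, 0.42 within those with Xist, and 0.077 to 0.40 over the fits that left out a library. It stayed below the median of the other members in each of these, by 0.39 (within Xist) to 1.00 (within Y-linked). Both of those ends come from a class with only 1 library in a group. Signs near 0 were not stable. The log2 fold change of Col4a2 was 0.30 with equal totals, 0.42 with quantile normalization, 0.014 with library weights, 0.052 with the class covariate and -0.088 to 0.11 when a library was left out. The log2 fold change of Col6a2 was -0.028 with library weights and -0.076 to 0.17 with a library left out. That of Postn was -0.23 with library weights, -0.10 with the class covariate and -0.21 to 0.45 with a library left out. That of Sparc was -0.093 to 0.37 with a library left out, and Ogn 0.044 with equal totals. With equal totals the median of all genes tested moved from -0.0046 to 0.29. The shifts of Col4a2 and Ogn under that scaling are therefore not particular to those genes. The cause of the other shifts was not tested. Depth limits the low genes, such as Mmp3, Tnc and Lox, whose vehicle values rest on few reads.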

Other observations

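Ratios of transcripts per kilobase were taken between chains that assemble into 1 protein, and between genes set against Col1a1, as values with no test. Col5a2 to Col5a1 was 0.731, 0.686 and 0.731 after vehicle, in replicate order, and 0.88, 1.27 and 1.18 after doxorubicin, so the ratio was higher in every doxorubicin library. Col6a1 to Col6a2 was 1.14, 1.11 and 1.11 after vehicle and 1.22, 1.59 and 1.59 after doxorubicin, again without overlap, and Col6a3 to Col6a1 was 0.186, 0.209 and 0.24 and then 0.171, 0.0937 and 0.12, lower without overlap. Col1a1 to Col1a2 was 0.854, 0.829 and 0.884 and then 0.876, 0.719 and 0.583, with replicate 1 in the vehicle range and replicates 2 and 3 below it. Col4a1 to Col4a2, whose genes lie head to head, was 1.46, 1.33 and 1.28 and then 1.41, 1.67 and 1.56, with replicates 2 and 3 above the vehicle range. Col3a1 to Col1a1 was 2.42, 2.12 and 2.41 and then 2.65, 0.803 and 1.63. Dcn to Col1a1 was 9.8, 13.2 and 12.7 and then 11.8, 62.1 and 49.4, and Lox to Col1a1 0.0499, 0.0719 and 0.0319 and then 0.0406, 1.35 and 0.42. Vehicle replicate 1 held the highest vehicle value in 13 of the 14 collagens and in 32 of the 36 other genes. On the log2 scale the median SD among vehicle libraries was 0.295 for collagens and 0.163 for all genes tested. Among doxorubicin libraries it was 0.302 for collagens and 0.578 for the other members, against 0.334 for all genes tested.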
